A study of Rattus norvegicus with 6 samples.

Results

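The aminoacyl-tRNA synthetases were examined in RNA-seq data of rat rheumatoid arthritis fibroblast-like synoviocytes (RA-FLS). Members were the protein-coding rows whose gene symbol is that of an aminoacyl-tRNA synthetase, which is the letter of an amino acid followed by ars with or without a final 1 or 2, with Eprs and the Fars genes added. This gave 37 of the 34156 genes in the count table. Names ending in 2 are the mitochondrial enzymes (17 genes), and the other 20 were taken as cytosolic. Tars3, a further threonine enzyme gene, is outside this naming and had 111 to 136 counts with TNF-α alone and 116 to 139 with EMO. The study compared a TNF-α group (3 libraries, 10 ng/mL TNF-α) with a TNF-α+EMO group (3 libraries, the same TNF-α dose with 80 μmol/L emodin). Emodin (EMO) is an anthraquinone of rhubarb. Both groups were wild-type rat cells obtained from a cell bank and used at passage 4, both received TNF-α, and no library without TNF-α was analysed here, so every difference here is between emodin with TNF-α and TNF-α alone. The labels give the time as day 5, whereas the methods of the study describe a shorter incubation. The methods call the 3 libraries of a group biological replicates but nothing says that they came from separate cultures, so p-values measure the spread between these libraries, which may be technical.

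An aminoacyl-tRNA synthetase joins one amino acid to its tRNA, the step at which the genetic code is read chemically. Cytosolic and mitochondrial protein synthesis mostly use separate enzymes, both encoded in the nucleus, while Gars and Kars each make both forms from a single gene. Several cytosolic enzymes sit together in the multisynthetase complex, held by the scaffold proteins Aimp1, Aimp2 and Eef1e1. When a tRNA lacks its amino acid the kinase GCN2 is activated and phosphorylates eIF2, which favours translation of the transcription factor ATF4, and several synthetase genes are known ATF4 targets.

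Depth was 16813322 to 17794455 counts per library. A gene was tested if 3 or more libraries had 10 or more counts (13614 genes), and a gene is called here when its adjusted p was under 0.05 in the edgeR quasi-likelihood test (Benjamini-Hochberg). Of the 37 synthetase genes 36 passed this filter. The groups differed widely, since 80.9% of the tested genes were called, 39.4% with more reads under EMO and 41.4% with fewer, with a median log2 fold change of -0.01. Of 12 fibroblast markers 11 were in the table, and 6 of these (Col1a1, Col3a1, Vim, Pdgfra, Pdgfrb and Fn1) had at least 10 counts in all 6 libraries. The summed normalized counts of the 11 were 270599 to 301312 with TNF-α alone and 36544 to 39249 with EMO. Lum had 235 to 263 raw counts with TNF-α alone and 0 with EMO, whereas Dcn had 0 to 4 and 24 to 33. The synoviocyte markers Thy1, Pdpn and Prg4 had at most 7 counts in any TNF-α library and 0 in the TNF-α+EMO libraries, so the labelled cell type was not shown by these genes, although Col1a1, Vim and Fn1 were abundant. Ptprc, the general leukocyte marker, had at most 1 count, and Epcam, Kdr and Acan were at 0 in all 6 libraries. The leukocyte list was not absent as a whole, since Cd14 had 1055 to 1163 counts with TNF-α alone against 451 to 536 with EMO, and Cd68 had 142 to 172 against 239 to 259. Sox9, on the chondrocyte list, had 459 to 548 counts against 1 to 6. Krt8, on the epithelial list with Epcam, had 10193 to 11087 counts with TNF-α alone and 1908 to 2262 with EMO. The markers moved with the same groups as the synthetases, and their part in the results was not tested. In bulk RNA, fewer cells of a kind and less RNA per cell cannot be told apart.

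Of the 20 cytosolic synthetases, 18 were higher in the TNF-α+EMO group, 1 was lower (Iars1) and 1 was not called (Kars). Among all tested genes the share called higher was 39.4%. For the cytosolic genes the median log2 fold change was 1.68. A log2 fold change over 1 was reached by 13 of the 20, beside 19.5% of all tested genes (47.3% when either direction is counted), and one over 2 by 7 of the 20, beside 5.94%. The 16 mitochondrial genes that could be tested divided differently, with 9 higher, 3 lower and 4 not called, and a median log2 fold change of 0.32. The difference between the compartments was not tested as a set. Among them 1 passed a log2 fold change of 1 upwards (Fars2) and 1 passed it downwards (Lars2). The 17th, Mars2, the mitochondrial methionine enzyme, had 2, 5 and 2 counts with TNF-α alone and 4, 7 and 4 with EMO, and was too low to test.

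**Figure D1:**
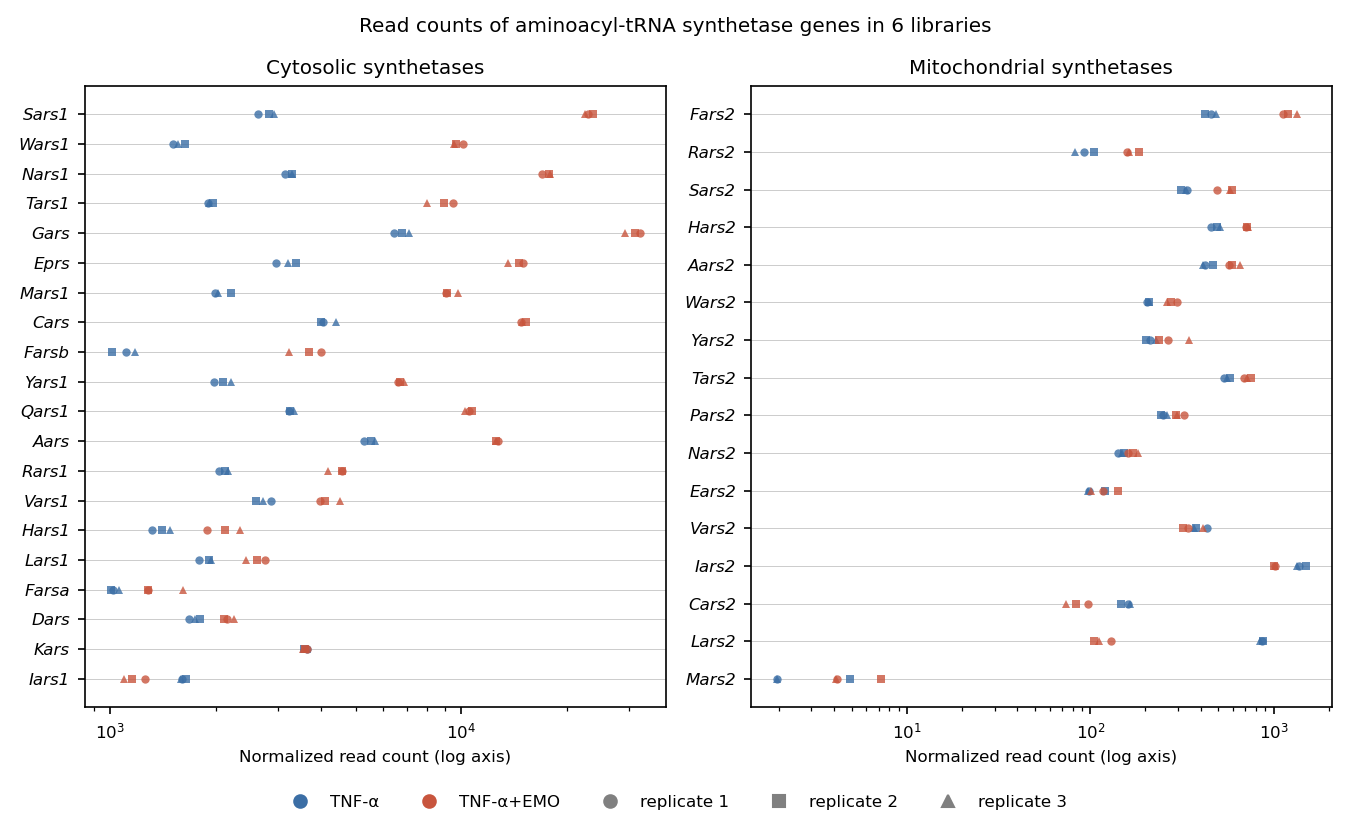
Normalized read counts (horizontal log axis) of the 20 cytosolic and 16 of the mitochondrial synthetase genes in each of the 6 libraries, with TNF-α in blue, TNF-α+EMO in red and the marker shape giving the replicate. All TNF-α+EMO points lie to the right of all TNF-α points for 18 cytosolic genes and to the left for Iars1. For the mitochondrial genes these points lie to the right for 10 genes and to the left for Cars2, Iars2 and Lars2. Lars2 was near 115 counts against 859 with TNF-α alone. Of all tested genes 40.3% had non-overlapping libraries upwards and 42.5% downwards.

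The start regions of the synthetase genes were searched for the letters TGATGNAA on either strand, the form of the composite site that C/EBP and ATF factors, ATF4 among them, are known to bind. Windows from 250 bases before to 50 bases after the gene start came from RefSeq (GRCr8), and 32 of the 37 members had 1 window. Of 17 cytosolic windows 7 held a match (41.2%), and of 15 mitochondrial windows none did. A match was found in 3.35% of 21851 windows of protein-coding genes and in 3.98% of all 33469 windows. The matches lay in Nars1, Cars, Aars, Mars1, Tars1, Yars1 and Iars1. A match is a description of the letters and not evidence that a factor binds there.

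A stretch around a match is shown for each of the 7 genes, because these letters are what they share in sequence. Each is written 5′ to 3′ on the strand of its gene, with the match in capitals, in GRCr8 coordinates. A match on the opposite strand appears as its reverse complement. Aars held a further match, TTGCATCA with its first base 112 bases before the start, whose stretch is not shown.
Nars1 (chr18:60275778-60275807, minus strand, first base of the match 14 bases before the start): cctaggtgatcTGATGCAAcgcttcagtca
Tars1 (chr2:62114811-62114840, minus strand, 27 bases before): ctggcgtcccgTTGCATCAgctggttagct
Mars1 (chr7:65023752-65023781, minus strand, 17 bases before): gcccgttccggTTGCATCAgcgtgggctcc
Iars1 (chr17:15193658-15193687, minus strand, 24 bases before): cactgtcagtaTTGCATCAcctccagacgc
Aars (chr19:55908480-55908509, plus strand, 9 bases after): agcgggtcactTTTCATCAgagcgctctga
Cars (chr1:208225334-208225363, minus strand, 17 bases after): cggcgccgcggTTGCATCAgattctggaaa
Yars1 (chr5:146820190-146820212, plus strand, 38 bases after, ending at the end of the window): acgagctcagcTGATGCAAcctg

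Sars1 (chromosome 2, 211219750 to 211235467, minus strand), the serine enzyme, had the largest fold change of the synthetases. Gene positions are those deposited, on Rnor_6.0 by the submitters' processing notes. It had 2641, 2835 and 2938 normalized counts with TNF-α alone and 22995, 23736 and 22535 with EMO. The groups lay far apart, and the mean rose 8.23-fold from 2804 ± 151 to 23088 ± 606 (SD, n = 3 each). The log2 fold change was 3.04 with a standard error of 0.06 (edgeR, adjusted p = 1.4e-11). Wars1 (chromosome 6, 132771021 to 132802210, minus strand), the tryptophan enzyme, had 1509, 1637 and 1565 counts against 10088, 9683 and 9531 with EMO. No library of either group came near the other group, and the log2 fold change was 2.64 with a standard error of 0.06 (edgeR, adjusted p = 3.1e-11). Nars1 (chromosome 18, 59986360 to 60002569, minus strand) charges asparagine, and is the gene with its match 14 bases before the start. Its counts were 3148, 3290.2 and 3289 with TNF-α alone and 16922, 17744 and 17926 with EMO, a log2 fold change of 2.43 with a standard error of 0.06 (edgeR, adjusted p = 3.2e-11), and the spread within each group was small beside this gap.

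Tars1 (chromosome 2, 61394770 to 61414102, minus strand), the threonine enzyme, was at 1902, 1967 and 1912 normalized counts without EMO and at 9477, 8906 and 7998 with it. The TNF-α+EMO libraries spread more than the TNF-α libraries but did not approach them (log2 fold change 2.19, standard error 0.07, edgeR, adjusted p = 3.4e-10). Gars (chromosome 4, 85235172 to 85276044, plus strand), the glycine enzyme of both compartments, went from 6436, 6786 and 7084 counts to 32179, 31182 and 29265. These groups were again far apart, with a log2 fold change of 2.19 and a standard error of 0.06 (edgeR, adjusted p = 1.2e-10). Eprs, which carries the glutamate and the proline enzyme in 1 protein, and Mars1, the methionine enzyme, both had a log2 fold change of 2.17. Mars1 shares 72 bases at its end with the opposite-strand gene Ddit3, whose counts went from 453 at the lowest to 29061 at the highest over the libraries. Whether the authors counted reads by strand is not given in the sources used here, so some reads counted to Mars1 could be from Ddit3.

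The remaining cytosolic increases were smaller. Log2 fold changes were 1.86 for Cars (cysteine), 1.73 for Farsb (the beta subunit of the phenylalanine enzyme), 1.68 for Yars1 (tyrosine) and 1.68 for Qars1 (glutamine). They were 1.20 for Aars (alanine) and 1.07 for Rars1 (arginine), and lay under 1 for Vars1 (valine, 0.61), Hars1 (histidine, 0.60) and Lars1 (leucine, 0.47). Each of these 9 genes was called, and in none did the 2 groups of libraries overlap. Of all tested genes 80.9% were called in either direction, 39.4% higher, and 40.3% had non-overlapping libraries upwards.

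The 4 cytosolic genes with the lowest values were Farsa, Dars, Kars and Iars1. Farsa (chromosome 19, 25969255 to 25978776, plus strand), the alpha subunit of the phenylalanine enzyme, had 1019, 1006 and 1063 normalized counts with TNF-α alone and 1280.0, 1281 and 1618 with EMO. All 3 values with EMO were above those without, 1 of them well above the other 2, and the log2 fold change was 0.44 with a standard error of 0.10 (edgeR, adjusted p = 0.0014). Dars (chromosome 13, 45074072 to 45127815, minus strand), the aspartate enzyme, had 1679, 1808 and 1743 counts against 2156, 2115 and 2261. The groups were separate but close, at a log2 fold change of 0.32 with a standard error of 0.06 (edgeR, adjusted p = 5.2e-04).

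Kars (chromosome 19, 44212206 to 44231157, minus strand), the lysine enzyme of both compartments, had 3649, 3565 and 3634 normalized counts with TNF-α alone and 3645, 3599 and 3539.7 with EMO. The groups overlapped over nearly their whole range. The log2 fold change was -0.01 with a 95% interval of -0.13 to 0.11 (edgeR, adjusted p = 0.89). Among the 20 cytosolic genes Kars was the single one not called.

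Iars1 (chromosome 17, 15355529 to 15402649, minus strand), the isoleucine enzyme, was the one cytosolic gene that fell. Its counts were 1601, 1650.0 and 1595 with TNF-α alone and 1261, 1156 and 1094 with EMO. The groups did not overlap, with a log2 fold change of -0.46 and a standard error of 0.07 (edgeR, adjusted p = 9.3e-05). The table lists a second gene described as a cytoplasmic-like isoleucine tRNA ligase, LOC103690033, with 19, 502 and 166 counts with TNF-α alone and 104, 212 and 80 with EMO. How the counting divided reads between the 2 copies is not given in the sources used here. With the counts of both added together, a step chosen after seeing the data, the log2 fold change was -0.49 (edgeR, adjusted p = 0.0014).

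**Figure D2:**
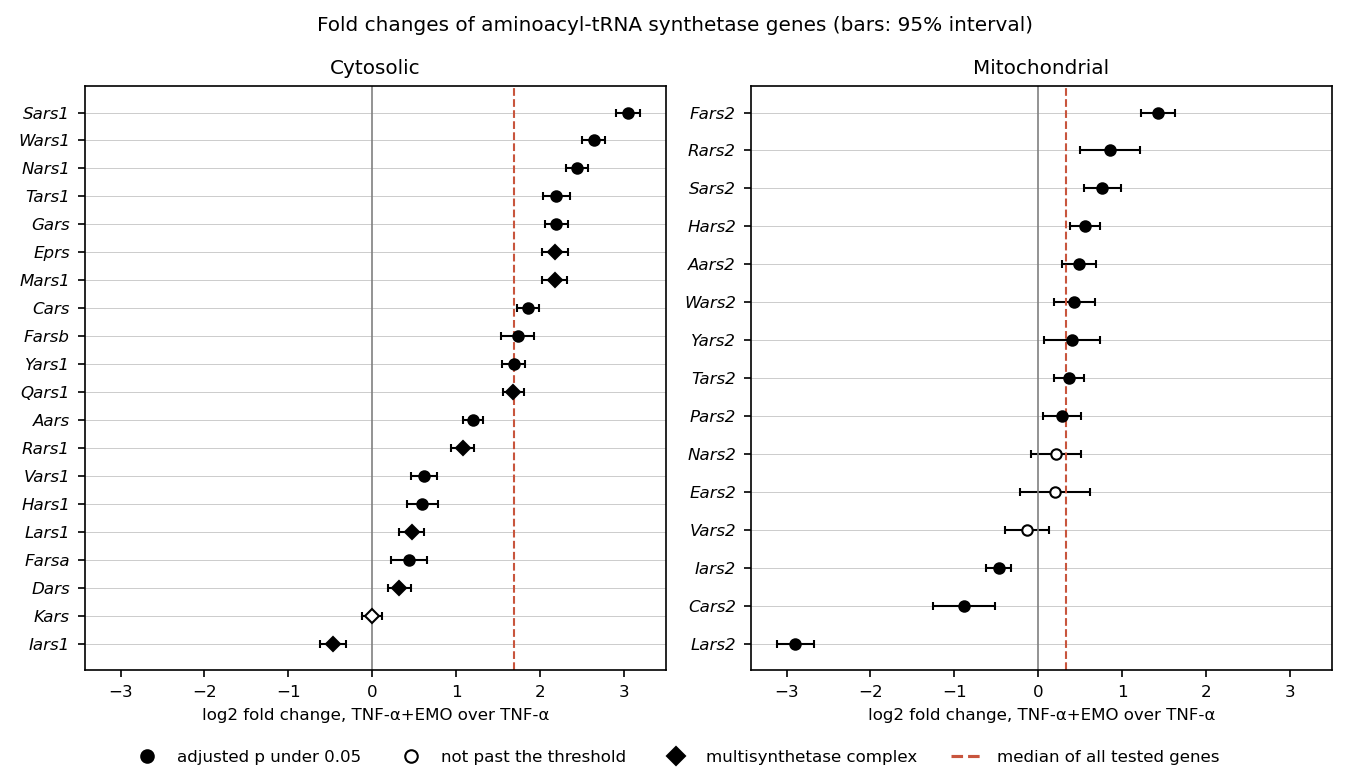
Log2 fold changes of TNF-α+EMO over TNF-α for the 20 cytosolic and 15 of the tested mitochondrial synthetases, with 95% intervals from the edgeR fit. Open symbols missed the adjusted p threshold of 0.05, diamonds are members of the multisynthetase complex and the dashed lines are the medians of all tested genes of each compartment, 1.68 and 0.32.

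The cytosolic genes were also described by complex membership and by structural class. The 8 enzymes of the multisynthetase complex (Eprs, Mars1, Qars1, Rars1, Lars1, Dars, Kars and Iars1) gave 6 higher, 1 lower and 1 not called, with a median log2 fold change of 0.77. All 12 genes outside the complex, with Farsa and Farsb as subunits of the same enzyme, were called higher. Their log2 fold changes ran from 0.44 to 3.04, with a median of 1.79. The difference between these medians was not tested. For each count in this paragraph, the share over all tested genes was 39.4% called higher and 41.4% called lower. The 3 scaffold genes of the complex were all called higher. Aimp1 had 962, 906 and 982 normalized counts against 3019, 2912 and 2977, a log2 fold change of 1.64 (edgeR, adjusted p = 8.7e-10), and the groups did not overlap. Aimp2 and Eef1e1 had log2 fold changes of 0.85 and 0.81. By catalytic fold, 8 of the 9 class I cytosolic genes and 9 of the 10 class II genes were higher, with medians of 1.68 and 1.46. Eprs holds an enzyme of each class and was left out of that count.

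Of the 7 cytosolic genes with a match to TGATGNAA, 6 were called higher, each with a log2 fold change over 1, and Iars1 was called lower, with a median log2 fold change of 1.86 for the 7. Of the 10 cytosolic genes whose window held no match, 9 were called higher, 5 of them with a log2 fold change over 1, and Kars was not called. Their median was 1.15, and the difference between the medians was not tested. Beside these counts, 39.4% of all tested genes were called higher, and 19.5% were called higher with a log2 fold change over 1. Sars1 and Wars1, the genes with the largest log2 fold changes, were in the group without a match, and Iars1, the only cytosolic gene that fell, was in the group with one. Gars, Rars1 and Dars had no window in the table.

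The 2 subunits of the cytosolic phenylalanine enzyme work as a tetramer made of equal parts, so their levels were set beside each other per length. Farsb over Farsa was 0.876, 0.810 and 0.893 with TNF-α alone and 2.52, 2.33 and 1.62 with EMO. Every ratio with EMO was above every ratio without it (exact permutation test, two-sided p = 0.1, the smallest value that 3 libraries against 3 allow).

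Levels were compared between genes as RPKM, the reads of a gene scaled by its length and by the TMM library size. In the TNF-α group the cytosolic levels ran from 16.3 RPKM for Iars1 to 166 for Gars, a 10.2-fold range with a median of 45.2. In the TNF-α+EMO group they ran from 11.8 RPKM for Iars1 to 759 for Gars, a 64.1-fold range with a median of 157. The gene at the lower end fell and the one at the upper end rose. Gars was the most abundant synthetase per length in both groups, at 158, 167 and 174 RPKM without EMO and 791, 766 and 719 with it.

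The order below Gars changed. Kars was second of the 37 genes in the TNF-α group at 98.3 ± 1.21 RPKM (SD, n = 3) and 13th in the TNF-α+EMO group at 97.7 ± 1.44. Sars1 was 4th at 83.5 ± 4.50 and then second at 687 ± 18.0. Neighbours in the TNF-α order were often within their spread, as for Sars1 and Cars (79.5 ± 4.23). Wars1 went from 20th at 24.8 ± 1.02 RPKM to 11th at 154 ± 4.54. Most mitochondrial enzymes were lower per length than the cytosolic ones, with levels from 2.76 RPKM for Rars2 to 26.1 for Iars2 in the TNF-α group and from 2.15 for Lars2 to 36.6 for Fars2 in the TNF-α+EMO group, Mars2 aside. The ranges overlapped, since Iars2 lay above Wars1 and Iars1 in the TNF-α group. In the TNF-α+EMO group Fars2, Iars2, Tars2, Sars2 and Hars2 lay above Iars1.

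Summed over genes, the cytosolic synthetases took 0.314%, 0.326% and 0.337% of all counts with TNF-α alone and 1.05%, 1.04% and 0.995% with EMO. The groups did not overlap and the mean share was 3.16-fold higher with EMO. The mitochondrial synthetases took 0.0391% ± 0.00079 and 0.0394% ± 0.00077 (SD, n = 3 each), so their share of the raw library totals differed by less than the spread between libraries. On the TMM scale used for the other results their summed normalized counts were 6379, 6604 and 6395 with TNF-α alone against 6855, 7009 and 7289 with EMO, without overlap, and their summed RPKM was 1.17-fold higher with EMO. The ratio of summed RPKM, cytosolic over mitochondrial, was 8.02, 8.02 and 8.41 with TNF-α alone and 25.4, 24.8 and 23.1 with EMO.

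Among the mitochondrial enzymes, the highest values were those of Fars2, Rars2, Sars2 and Hars2. Fars2 (chromosome 17, 29006988 to 29438668, minus strand), the phenylalanine enzyme of mitochondria, had 456, 425 and 484 normalized counts with TNF-α alone and 1122, 1193 and 1340.5 with EMO. The groups were well separated, at a log2 fold change of 1.42 with a standard error of 0.09 (edgeR, adjusted p = 7.9e-08). Rars2 (chromosome 5, 50075527 to 50127424, plus strand), for arginine, had 92.2, 104 and 82.8 counts against 158, 184 and 163. Its groups were separate at a low depth, with a log2 fold change of 0.85 and a standard error of 0.16 (edgeR, adjusted p = 5.2e-04). Rars2 overlaps the opposite-strand gene Slc35a1, which had 180 to 377 counts, over 7544 bases.

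Sars2 (chromosome 1, 86923591 to 86935904, plus strand), for serine, had 338, 312 and 332 normalized counts without EMO and 493, 592 and 581 with it. All EMO values were higher, and the log2 fold change was 0.76 with a standard error of 0.10 (edgeR, adjusted p = 2.6e-05), beside 3.04 for the cytosolic serine enzyme. Hars2 (chromosome 18, 29629184 to 29638721, plus strand), for histidine, had 456, 491 and 511 counts against 705, 714 and 724, with no overlap and a log2 fold change of 0.56 (edgeR, adjusted p = 6.1e-05). Hars2 lies head to head with the cytosolic gene Hars1, whose log2 fold change was 0.60, with 96 bases between them. The 5 further genes called higher were Aars2 (0.48), Wars2 (0.43), Yars2 (0.40), Tars2 (0.36) and Pars2 (0.28), the values being log2 fold changes. The calls of Yars2 and Pars2 were at edgeR adjusted p = 0.028 each and were lost under several settings.

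Lars2 (chromosome 8, 132441285 to 132536369, plus strand), the mitochondrial leucine enzyme, fell most. Its normalized counts were 862, 872 and 843 with TNF-α alone and 129, 105 and 112 with EMO. The mean of 859 ± 14.8 was 7.44-fold that of 115 ± 12.1 (SD, n = 3 each), and no other synthetase fell by a log2 fold change beyond -1. The log2 fold change was -2.89 with a standard error of 0.10 (edgeR, adjusted p = 4.6e-10). In the order of levels per length Lars2 went from 22nd to 36th of 37. Among all tested genes 27.8% passed a log2 fold change of -1 downwards.

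Cars2 (chromosome 16, 83288664 to 83325699, plus strand), for cysteine, had 159.9, 147 and 164 normalized counts with TNF-α alone and 97.0, 83.9 and 73.3 with EMO. The groups did not overlap (log2 fold change -0.89, standard error 0.17, edgeR, adjusted p = 5.1e-04). Iars2 (chromosome 13, 103231387 to 103264906, minus strand), for isoleucine, had 1375, 1496 and 1346 counts against 1019, 1003 and 1013. It was lower in every EMO library, at a log2 fold change of -0.47 with a standard error of 0.07 (edgeR, adjusted p = 6.4e-05), close to the -0.46 of Iars1.

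Nars2, Ears2 and Vars2 were among the genes not called. Nars2, for asparagine, had 142, 153 and 148 normalized counts against 159.9, 172 and 181 with EMO. These values did not overlap, but the log2 fold change of 0.21 had a 95% interval of -0.09 to 0.51 (edgeR, adjusted p = 0.17). Ears2, for glutamate, had 98.1, 119.9 and 97.4 counts against 118, 142 and 101, with overlapping groups and a log2 fold change of 0.19 (edgeR, adjusted p = 0.36, interval -0.22 to 0.61). Vars2, for valine, had 435, 376 and 367 counts against 341, 320.3 and 412, with overlap and a log2 fold change of -0.13 (edgeR, adjusted p = 0.31, interval -0.40 to 0.13).

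Cytosolic and mitochondrial enzymes of the same amino acid were then compared within each library, as the ratio of their counts. This ratio depends on the lengths of both genes, so its change between the groups is read and not its size. For 16 mitochondrial enzymes 17 ratios were formed, since Fars2 was set against both Farsa and Farsb. Eprs entered the ratios of both Ears2 and Pars2. In 12 of them all TNF-α+EMO libraries were above all TNF-α libraries, in 1 all were below, and in 4 the groups overlapped (Rars, Hars, Iars and Farsb over Fars2). With 3 libraries against 3 an exact two-sided permutation test cannot go below p = 0.1, which is the value of each ratio whose groups did not overlap. Single genes had non-overlapping libraries in 40.3% of the tested genes upwards and 42.5% downwards.

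The leucine ratio, Lars1 over Lars2, moved most. It was 2.07, 2.19 and 2.29 with TNF-α alone and 21.4, 24.8 and 21.7 with EMO, a mean 10.3-fold higher. Here the cytosolic gene rose by a log2 fold change of 0.47 and the mitochondrial one fell by 2.89, so most of the change lay in Lars2. The cysteine ratio, Cars over Cars2, was 25.3, 27.0 and 26.8 without EMO and 153, 182 and 204 with it, a mean 6.79-fold higher. In this pair both genes contributed, Cars upwards and Cars2 downwards. Farsa over Fars2 went the other way, from 2.23, 2.37 and 2.20 to 1.14, 1.07 and 1.21, while Farsb over Fars2 went from 2.43, 2.38 and 2.43 to 3.56, 3.10 and 2.42 and overlapped. For isoleucine both genes fell and the ratio was 1.16, 1.10 and 1.18 without EMO against 1.24, 1.15 and 1.08 with it.

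**Figure D3:**
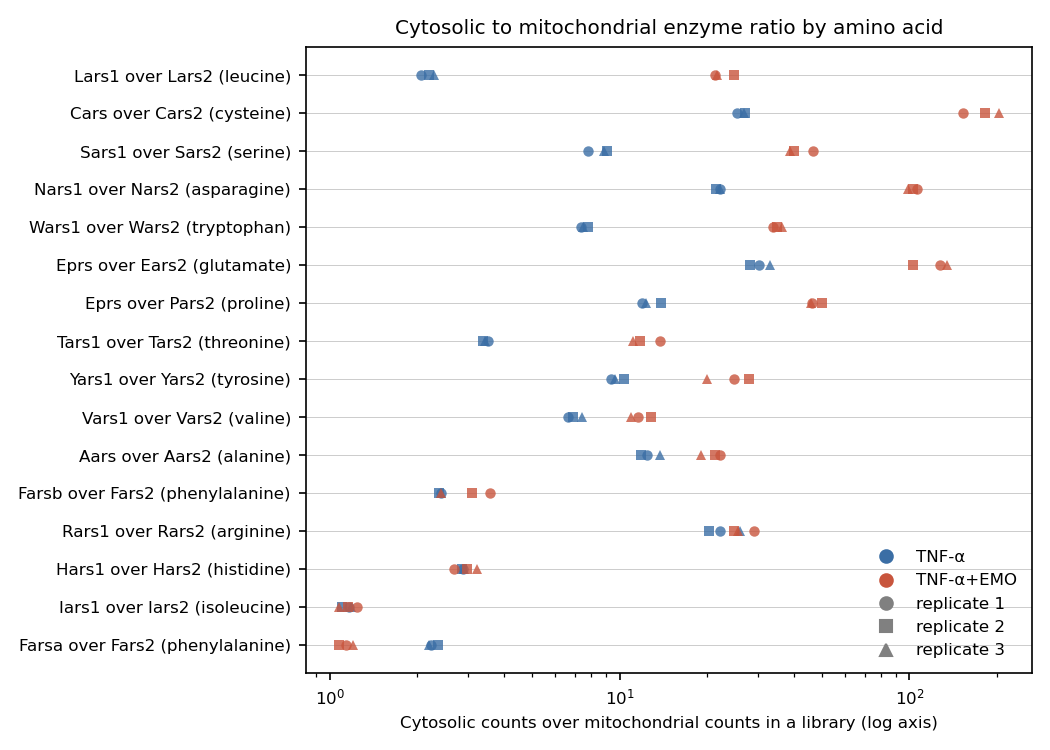
Ratio of cytosolic to mitochondrial counts (horizontal log axis) for 16 enzyme pairs in each library, with TNF-α in blue, TNF-α+EMO in red and the marker shape giving the replicate. The pairs are ordered by the change of their ratio, from Farsa over Fars2, which was lower with EMO, to Lars1 over Lars2, which went from about 2.19 to about 22.6.

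Genes around eIF2 and GCN2, the kinase activated by uncharged tRNA, were next examined. Of these 7 genes, 5 were called higher and 2 lower, with a median log2 fold change of 1.33. The 2 lower were GCN2 itself and its activator, and the 5 higher do not themselves sense tRNA. Neither the charging of tRNA nor the phosphorylation of eIF2 was measured. Over all tested genes 80.9% were called in either direction, so being called is not particular to these genes. Atf4 had 4855, 4816 and 4787 normalized counts with TNF-α alone and 34028, 34740.0 and 32257 with EMO. The groups were far apart, with a log2 fold change of 2.80 and a standard error of 0.06 (edgeR, adjusted p = 1.1e-11). Ppp1r15a, the phosphatase subunit that acts on eIF2, had a log2 fold change of 4.52 and Impact, an inhibitor of GCN2 activation, one of 1.54. GCN2 itself, the gene Eif2ak4, had 917, 1043 and 989 counts against 361, 357 and 319.8, and so fell without overlap (log2 fold change -1.51, edgeR, adjusted p = 3.6e-08). Its activator Gcn1 had a log2 fold change of -0.68.

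Of 23 ATF4 target genes outside the synthetases, 21 were called higher, 1 lower and 1 not called, with a median log2 fold change of 2.27. Over all tested genes 39.4% were higher. A log2 fold change over 1 was reached by 19, beside 19.5% of all tested genes. Ddit3, which encodes the stress factor CHOP, had the largest value at 5.94, followed by Atf3 (5.63), Chac1, which degrades glutathione (5.60), and Trib3 (4.86), and the first of these overlaps Mars1 as given above. The 3 serine synthesis genes on the list differed, as Psph was higher (log2 fold change 2.43), Psat1 was lower (-0.57) and Phgdh was not called (0.11).

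Genes that make and handle tRNA are given beside the same background of 39.4% higher and 41.4% lower over all tested genes. Of 9 genes that work on mitochondrial tRNA charging and modification, 6 were higher, 1 lower and 2 not called, with a median log2 fold change of 0.70. Trmu, which thiolates mitochondrial tRNAs, had 199, 202 and 211 normalized counts against 526, 575 and 714, without overlap, a log2 fold change of 1.57 (edgeR, adjusted p = 3.8e-07). Gatb and Qrsl1, subunits of the amidotransferase that makes glutaminyl-tRNA in mitochondria, had log2 fold changes of 1.33 and 1.21. The remaining subunit, Gatc, was called lower at -0.27 (edgeR, adjusted p = 0.039), a call that several settings did not keep, and it overlaps Cox6a1.

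Of 20 tested tRNA processing and export genes, 12 were higher, 1 lower and 7 not called, with a median of 0.34, beside 39.4% higher and 41.4% lower over all tested genes. Xpot, the exporter of mature tRNA from the nucleus, had 1457, 1526 and 1559 normalized counts against 6686, 6123 and 5678. Its groups were far apart (log2 fold change 2.03, standard error 0.07, edgeR, adjusted p = 6.6e-10). The ribonuclease P genes Rpp38 and Rpp40 had log2 fold changes of 1.58 and 1.45, while Pop1 of the same enzyme fell, at -1.41. Of 20 genes of RNA polymerase III, which transcribes the tRNA genes, and its factors, 7 were higher, 8 lower and 5 not called, close to the shares over all tested genes, with a median of -0.17. The 7 include Maf1, a repressor of this polymerase (0.53). Polr3d (1.66) and Polr3e (1.35) had the largest log2 fold changes upwards and Gtf3c5 (-1.17), of the factor that binds the tRNA gene promoter, the largest downwards. Transfer RNAs themselves are not measured in poly(A)-selected libraries.

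**Figure D4:**
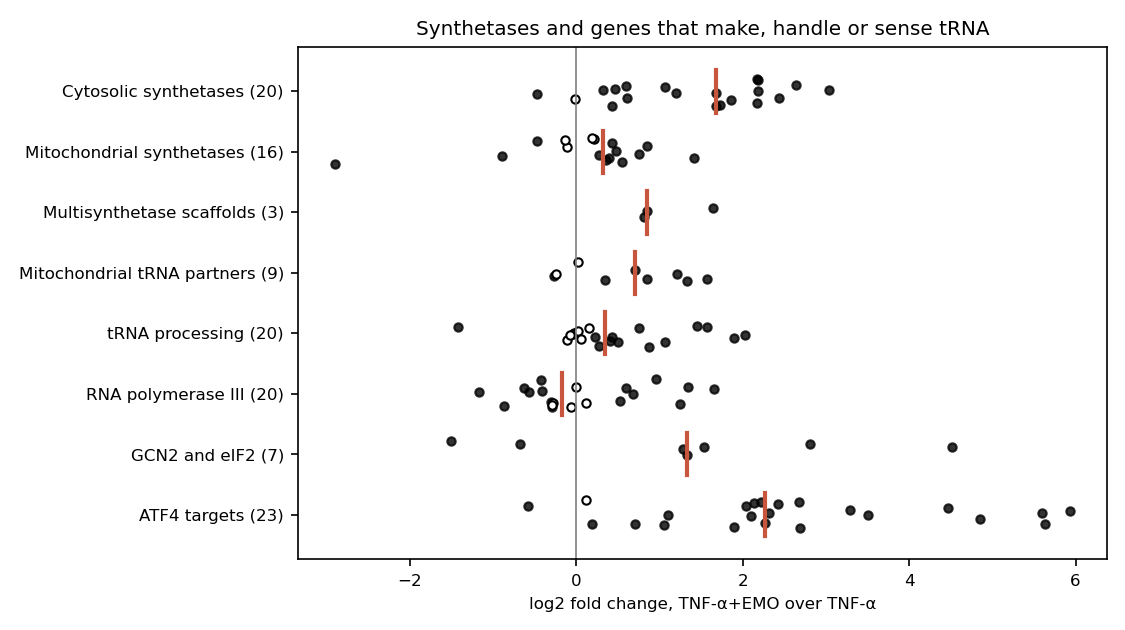
Log2 fold changes of TNF-α+EMO over TNF-α for the tested genes of each list, with the number tested in brackets, filled points for an adjusted p under 0.05, open points for the others and a red bar at the median. The medians run from -0.17 for RNA polymerase III to 2.27 for the ATF4 targets, with 1.68 for the cytosolic and 0.32 for the mitochondrial synthetases.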

How the data were processed

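Poly(A)-selected paired-end libraries of 6 rat RA-FLS samples were sequenced by the authors' provider. The submitters' processing notes name FastQC, Trimmomatic, HISAT2 and Rnor_6.0, and gene coordinates are given as deposited. The counting program, strand setting and annotation release are not given in the sources used here. The authors deposited raw counts per gene, which were used for every result. The FPKM values and the authors' comparison columns (group mean scores, and per gene the log2 fold change, p-value and adjusted p) were deposited too and were not used. The gene length column deposited by the authors was used for RPKM.

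The 13614 genes with 10 or more counts in 3 or more libraries were normalized by TMM and fitted with the quasi-likelihood test of edgeR 4.0.16 in R 4.3.3 (robust), with no covariate and Benjamini-Hochberg adjustment over all genes tested. The standard error is the log2 fold change divided by the square root of F, and 95% intervals use the degrees of freedom of the fit. Normalized counts are counts divided by the TMM effective library size and multiplied by its mean. The biological coefficient of variation was 0.121. Depth was 16813322 to 17794455 counts per library. The scripts were tested on simulated data in which most genes were unchanged, whereas 80.9% of the tested genes were called here. That simulation therefore does not show how the fit behaves with changes this wide. Values were printed for the 4 highest and 4 lowest genes of each compartment, the most abundant gene per length, the pairs moving most, genes not called, and up to 4 genes of each other list. The members, lists and markers were chosen with earlier results of these data known. Alternatives were other scalings and filters, DESeq2 1.42.0, a replicate block and leaving out each library. Of the 24 genes listed as ATF4 targets, the expression of Cth was not analysed here. A few further items are not reported here.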

Additional observations from a re-analysis of the deposited data

How the results depend on the processing

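Of 345 recomputed counts, medians and ratios, 323 stayed within 1.5 times the reported count or within the spread of the reported value. With any 1 library left out, 18 cytosolic genes were called higher, and the number of members called higher ranged from 25 to 27. Scaling by library totals moved the median of all genes by -0.11. Under it the cytosolic median was 1.57, the mitochondrial median 0.21, and 2 mitochondrial genes passed a log2 fold change of -1. With at least 10 counts required in all 6 libraries these medians were 1.61 and 0.25. With 1 library left out they ranged from 1.58 to 1.70 and from 0.23 to 0.34, and the mitochondrial genes past -1 from 1 to 2. Of the mitochondrial tRNA partners, 2 were lower under library totals and under the stricter filter, 0 with no filter, with DESeq2 and with the replicate block, and 0 to 1 with a library left out. Of the tRNA processing genes, 2 were lower under library totals and the stricter filter, and 7 to 13 were higher with a library left out, the 7 without TNF-α replicate 1. Leaving out Mars1 and Iars1, chosen after seeing the data, gave 0 lower cytosolic genes, a count that the removal of Iars1 fixes. Pars2 lost its call in 10 of 13 settings (log2 fold changes 0.17 to 0.33 over all) and Yars2 in 6 of 13 (0.25 to 0.53). Kars, called in none, turned above 0 without TNF-α+EMO replicate 1 (0.0037), 2 (0.0152) or 3 (0.0234), and with 1 library left out it ranged from -0.0916 to 0.0234. The cause of these shifts was not tested. Libraries of the same replicate number did not deviate together (correlations 0.019, -0.007 and 0.068), so the replicate block was not used as a pairing, and with it 18 cytosolic genes were higher. This depth leaves Mars2 untested, and groups of 3 are too small to test for outlying libraries.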
